A study of Sus scrofa with 18 samples.

Results

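The genes described here encode the WNT ligands, their receptors and the secreted proteins that modulate them, with a few of their nuclear effectors. They were chosen by name in the deposited gene table: every gene named WNT, FZD, SFRP, DKK or RSPO followed by a number, together with FRZB, WIF1, LRP5, LRP6, LGR4, LGR5, LGR6, RNF43, ZNRF3, LEF1, TCF7, TCF7L2 and AXIN2. This gave 53 of the 31908 genes in the table. They were 18 WNT ligands, 10 Frizzled receptors, the co-receptors LRP5 and LRP6, 6 antagonists that bind WNT, 4 Dickkopf antagonists, 4 R-spondins, 3 R-spondin receptors, 2 ubiquitin ligases, 3 factors of the TCF/LEF family, and AXIN2. RNF43 (ENSSSCG00000017640) carried no name in the table and was matched through a table of gene names, while TCF7L1 was not matched by name and is not analysed here.

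RNA of whole fetal pig brains was sequenced at gestation days (GD) 45, 60 and 90, counted from insemination, with 3 female and 3 male fetuses at each day. The dams were untreated gilts of a Landrace and Large White cross, inseminated with LR-M6 semen, and each library came from the brain of 1 fetus. Within each day the litter sizes in the labels paired each female with 1 male, so that the 6 libraries of a day came from 3 litter sizes and may hold littermates. A whole brain mixes all regions and cell types, and in such bulk RNA fewer cells of a type and less RNA per cell cannot be told apart. Each day came from dams of its own, so day and dam can be told apart only as far as the 3 litter sizes of a day allow.

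WNT proteins are lipid-modified ligands that leave the cell and bind a Frizzled receptor on a neighbour. With LRP5 or LRP6 as co-receptor, this stops the destruction of beta-catenin, which then enters the nucleus and acts with TCF/LEF factors on target genes. Secreted Frizzled-related proteins, FRZB and WIF1 hold WNT in the extracellular space, Dickkopf proteins block the co-receptor, and R-spondins with their LGR receptors protect Frizzled from the ligases RNF43 and ZNRF3. In the developing forebrain, WNT from the dorsal midline is known for patterning the cortex and hippocampus, and WNT7A and WNT7B for the growth of brain vessels.

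Library totals ranged from 15118843 to 19729783 counts. Male GD45 replicate 17 stood apart from the other libraries, with a first principal component score of -87.7 against -54.2 for the nearest library, and it held the lowest value of its day in 21 and the highest in 11 of the 49 genes tested. For female GD90 replicate 2 these counts were 15 and 14. The brain of male GD45 replicate 17 was light. It and that of female GD45 replicate 18, from a litter of 8, were listed with weights of 0.714 and 0.665, where the other GD45 brains had 1.55 to 1.86 in the same unit of the labels. Brain markers (12 genes, among them TUBB3, MAP2 and GFAP) summed to at least 6180 CPM in every library. At GD45 most of this sum came from TUBB3 and STMN2, with means of 4233 and 2051 CPM. Single markers varied more, and at GD45 MAP2 ranged from 17.9 to 393 CPM and GFAP from 17.5 to 52.2 CPM. Marker genes of choroid plexus, the tissue that secretes cerebrospinal fluid, summed to 956 to 1840 CPM at GD45, 685 to 1220 at GD60 and 430 to 991 at GD90, and those of meninges and fibroblasts to 957 to 1690, 1130 to 1380 and 1200 to 1550 CPM. HOX genes of spinal cord and caudal hindbrain summed to 86.9, 27.8 and 14.2 CPM in female GD45 replicates 13 and 18 and male GD45 replicate 11. They summed to at most 2.86 CPM in the other GD45 libraries and to at most 1.20 CPM in every library of GD60 and GD90. Pituitary genes summed to 64.2 CPM in female GD60 replicate 15, 30.2 in female GD45 replicate 13 and 16.6 in male GD45 replicate 17. In every other library they summed to at most 2.47 CPM. The median choroid plexus sum was lower at each later day, at 1290, 961 and 612 CPM, and the median meningeal sum was 1380, 1330 and 1320 CPM. From GD60 to GD90, 4 of the 8 choroid plexus genes and 4 of the 10 meningeal genes were called lower and 1 meningeal gene higher. Over all genes tested, 20.9% were called lower and 21.4% higher in that period. Every gene of both lists was detected in every library. Male GD45 replicate 17 also held the highest sums of its day for blood (779 CPM, the others 245 to 356), endothelium (436 CPM, the others 252 to 315) and choroid plexus. Female GD90 replicate 2 held those of GD90 for endothelium (462 CPM, the others 290 to 357) and choroid plexus (991 CPM, the others 430 to 707). The part of these in the results below was not tested.

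Levels are given as CPM (counts scaled to a fixed library size, with TMM factors), as the lowest, median and highest of the 6 libraries of a day. Levels of different genes are compared only as FPKM, which is CPM per kilobase of exon length. Changes are log2 fold changes from edgeR's quasi-likelihood F test on 18 libraries, with the day contrast averaged over the sexes and p-values adjusted by Benjamini-Hochberg over 16325 genes. The standard error after ± is not given by that test. It was derived here as the absolute log2 fold change divided by the square root of F. A gene is called here when its adjusted p was under 0.05. The 2 periods share the GD60 libraries, so their changes are not independent of each other.

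On average over the 18 libraries, 10 of the 53 genes had at least 10 FPKM, 24 had between 1 and 10, and 19 had less than 1. SFRP1 and DKK3, both secreted, had the highest averages at 64.3 and 60.2 FPKM, ahead of the receptors FZD1 at 24.6, FZD2 at 23.1 and FZD8 at 18.9 and the ligand WNT7B at 18.1. The filter on low counts left 49 genes for testing. The remaining genes were WNT1, WNT8A, DKK4 and RSPO4, which had at most 8, 5, 5 and 2 counts in any library and none in 7, 13, 7 and 13 of the 18 libraries. A library with no count allows up to 3 counts, and this limit covers counting error only. For WNT1, 77.5% of the exon length is shared with WNT10B on the other strand, so its low counts are uncertain beyond that limit.

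From GD45 to GD60, 15 of the 49 tested genes were called, which is 30.6%, where 16.7% of all genes tested were. Of these, 5 were higher at GD60 (WNT2, SFRP4, SFRP5, WNT9A and FZD9) and 10 were lower, and over all genes 9.35% were called higher and 7.37% lower. From GD60 to GD90, 29 of 49 were called (59.2%, with 42.4% of all genes), 14 higher and 15 lower, and over all genes 21.4% were higher and 20.9% lower. WNT10A, counted among the higher genes, passed the filter on low counts only through its GD90 libraries. Across the whole interval from GD45 to GD90, 34 were called (69.4%, with 57.5% of all genes), 14 higher and 20 lower, and over all genes 28.3% were higher and 29.3% lower. The median log2 fold change of the 49 genes was -0.01, -0.02 and 0.11 in these comparisons, beside -0.01, -0.01 and -0.03 for all genes, and single genes moved in both directions. WNT2 and SFRP4 rose in both periods. FZD2, FZD8, SFRP1, TCF7L2, WNT7A and WNT8B fell in both, and FRZB and SFRP2 fell in the first period and rose in the second. The remaining genes were called in 1 period (24 genes) or in neither (15 genes).

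**Figure D1:**
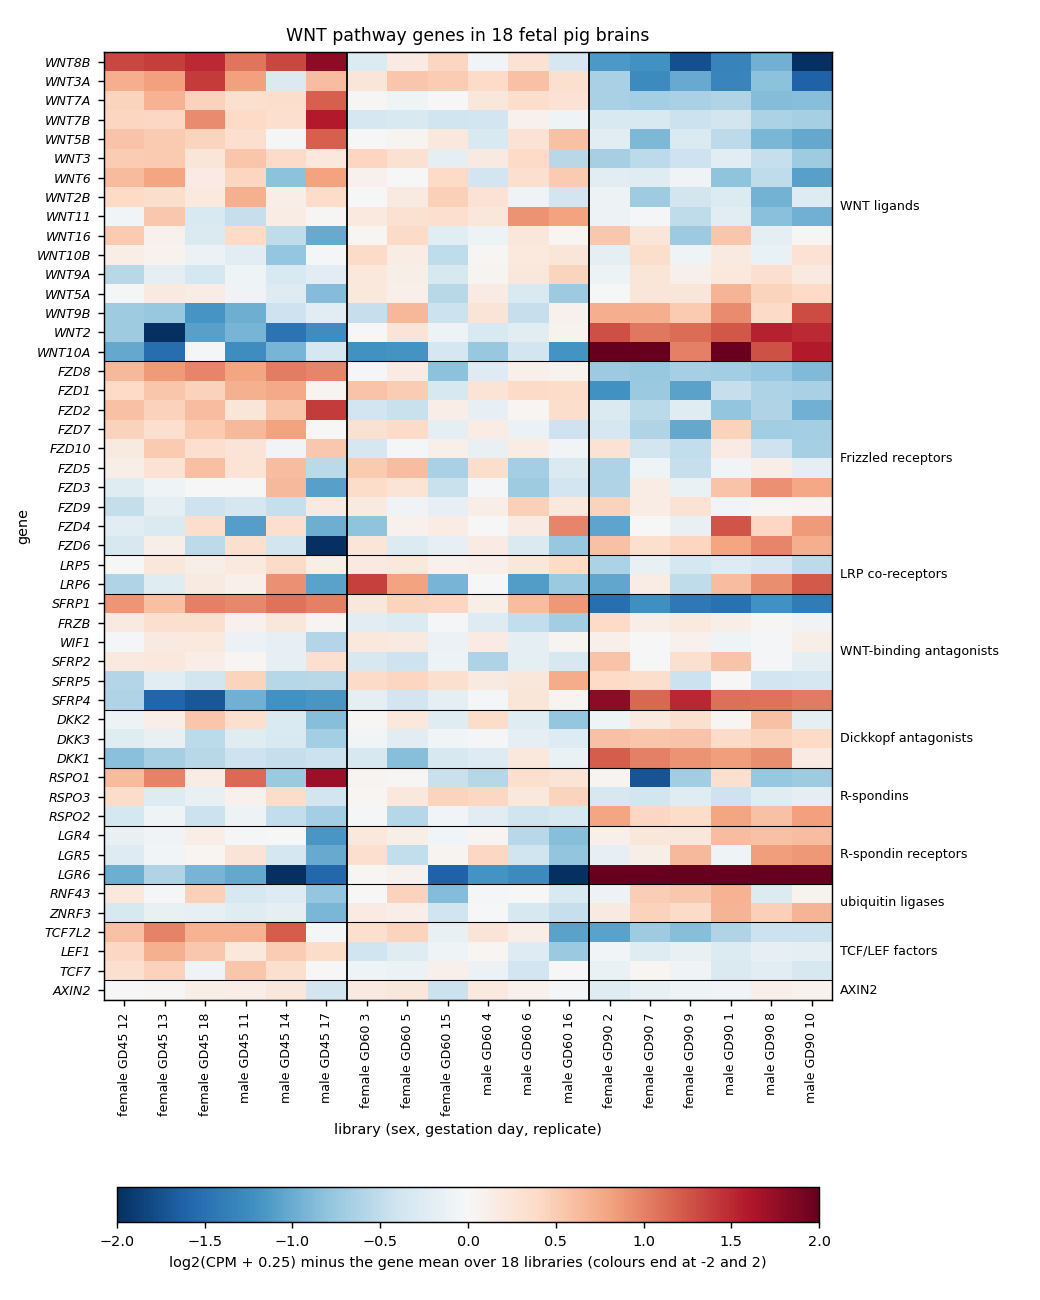
Level of the 49 tested genes (rows, by role) in the 18 libraries (columns), as log2(CPM + 0.25) minus the mean of each gene, with black lines between GD45, GD60 and GD90. LGR6 and WNT10A are high in all 6 GD90 libraries, SFRP1 and WNT8B are low there, and male GD45 replicate 17 differs in many rows from the other GD45 libraries.

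**Figure D2:**
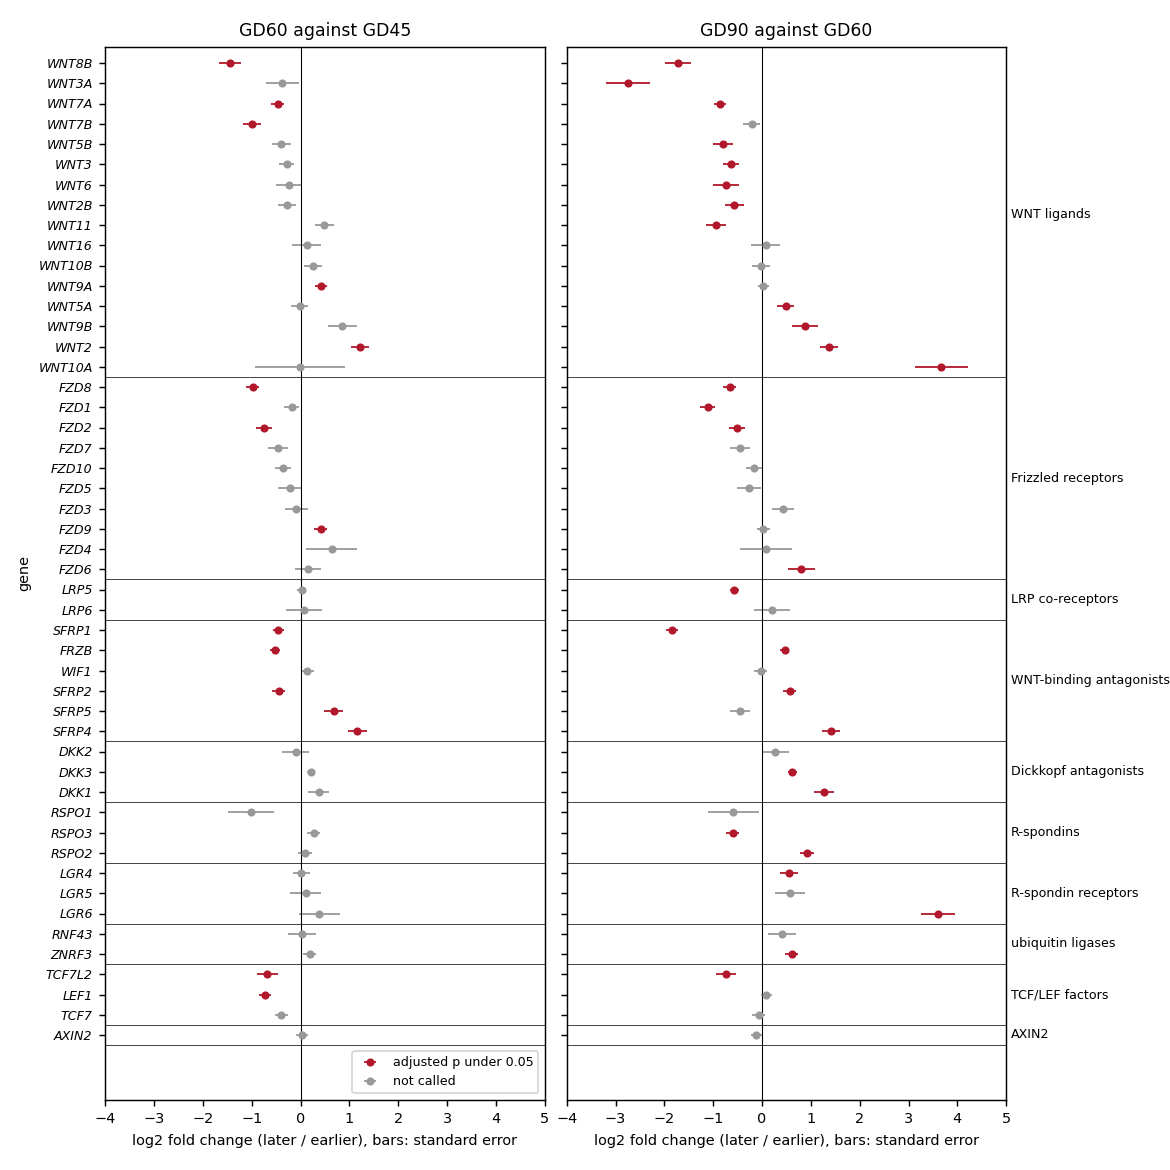
Log2 fold change (x axis, with standard error) of each tested gene (y axis, by role) for GD60 over GD45 (left) and for GD90 over GD60 (right), in red where the adjusted p was under 0.05. In the first period 5 genes are called higher and 10 lower, and in the second 14 and 15.

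The WNT ligands summed to 65.6 ± 16.6 FPKM at GD45, 46.4 ± 4.63 at GD60 and 37.7 ± 2.63 at GD90 (mean ± SD, n = 6). WNT7B (ENSSSCG00000027365, chr5:3521695-3572314, Sscrofa11.1), which acts on brain vessels and on neurons, made up 41.9%, 30.3% and 32.2% of that sum at the successive days. Its lowest, median and highest levels were 82.1, 87.3 and 196 CPM at GD45, 49.3, 51.8 and 68.9 CPM at GD60 and 40.95, 49.2 and 52.8 CPM at GD90. All GD45 libraries lay above all GD60 libraries, male GD45 replicate 17 being the highest, and the GD60 and GD90 ranges overlapped. WNT7B fell from GD45 to GD60 (log2 fold change -0.99 ± 0.18, adjusted p = 0.00104) and was not called from GD60 to GD90 (-0.21 ± 0.18, adjusted p = 0.36). Its close relative WNT7A had 31.7, 34.7 and 58.4 CPM at GD45, 23.97, 27.8 and 32.3 CPM at GD60 and 13.8, 15.8 and 16.7 CPM at GD90. The ranges overlapped between GD45 and GD60, while all GD90 libraries lay below all earlier ones. WNT7A fell in the first period (-0.47 ± 0.13, adjusted p = 0.0181) and in the second (-0.86 ± 0.13, adjusted p = 6.28e-05). The call in the first period was lost without female GD45 replicate 13 (adjusted p = 0.0509).

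WNT8B, a ligand of the embryonic dorsal midline and hippocampal primordium, had the largest fall across the whole interval among the genes above 1 CPM on average (log2 fold change -3.17 ± 0.26, adjusted p = 2.7e-08). It had 4.798, 5.94 and 8.08 CPM at GD45, 1.67, 2.26 and 2.98 CPM at GD60 and 0.263, 0.7501 and 0.986 CPM at GD90, and the 3 days did not overlap. WNT8B fell in the first period (-1.44 ± 0.23, adjusted p = 0.000394) and in the second (-1.73 ± 0.27, adjusted p = 6.89e-05). Of its exon length, 36.6% is shared with SEC31B on the other strand, and since the strand setting of the counting is not given in the sources used here, reads of SEC31B could be counted on it. WNT3A, the ligand of the cortical hem from which the hippocampus is induced, averaged less than 1 CPM. It was at 0.376, 1.06 and 1.78 CPM at GD45, 0.658, 0.793 and 0.897 CPM at GD60 and 0, 0.0993 and 0.2397 CPM at GD90, all GD90 libraries lying below all others, with 0 to 4 counts each. It was called lower from GD60 to GD90 (-2.75 ± 0.45, adjusted p = 0.000111) but not from GD45 to GD60 (-0.38 ± 0.34, adjusted p = 0.489).

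Other ligands that fell from GD60 to GD90 were WNT11, WNT5B, WNT6, WNT3 and WNT2B, none of them called from GD45 to GD60. WNT11, a ligand of the polarity branch that works without beta-catenin, had 3.27, 4.55 and 6.78 CPM at GD45, 5.33, 5.84 and 8.85 CPM at GD60 and 2.23, 3.56 and 4.51 CPM at GD90. GD60 was its highest day, with all libraries above those of GD90, and it fell in the second period (-0.94 ± 0.20, adjusted p = 0.00121). Across the whole interval it was not called (-0.45 ± 0.20, adjusted p = 0.0646). WNT5B had 11.09, 16.2 and 26.6 CPM at GD45, 9.23, 12.6 and 17.4 CPM at GD60 and 5.51, 6.95 and 9.71 CPM at GD90, with the GD60 and GD90 ranges overlapping, and it fell in the second period (-0.81 ± 0.20, adjusted p = 0.00437). WNT6 had 1.38, 3.94 and 4.82 CPM at GD45, 1.96, 3.08 and 3.905 CPM at GD60 and 1.12, 1.99 and 2.51 CPM at GD90. Its ranges overlapped at all days and the fall from GD60 to GD90 (-0.73 ± 0.27, adjusted p = 0.0341) was lost in 7 of 26 alternatives. WNT3 went from a mean of 11.2 to 7.17 CPM (-0.64 ± 0.16, adjusted p = 0.00439) and WNT2B from 3.23 to 2.16 CPM (-0.57 ± 0.20, adjusted p = 0.0278), the latter a call lost in 7 of 26 alternatives.

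Of the ligands that rose, WNT2, WNT10A and WNT9B averaged under 3 CPM at GD45, and WNT9A and WNT5A were above 10 CPM. WNT2, a ligand known from vessel and lung development, had 1.22, 2.39 and 3.37 CPM at GD45, 4.56, 5.45 and 6.84 CPM at GD60 and 12, 13.97 and 16.9 CPM at GD90. Every library of a later day lay above every library of an earlier day. WNT2 rose from GD45 to GD60 (1.22 ± 0.19, adjusted p = 0.000341) and again to GD90 (1.37 ± 0.18, adjusted p = 1.44e-05), and its share of the ligand FPKM went from 0.605% to 1.93% and 6.18%. Of its exon length, 4.20% is shared with ST7 on the other strand. WNT10A, a ligand known from skin appendages and teeth, was near the limit of counting at GD45 and GD60, with 0 to 8 and 1 to 6 counts per library, and had 18 to 50 counts at GD90. In CPM this was 0, 0.114 and 0.4604 CPM at GD45, 0.0599, 0.119 and 0.314 CPM at GD60 and 1.19, 2.24 and 3.31 CPM at GD90. Its log2 fold change in the second period was 3.67 ± 0.54 (adjusted p = 4.22e-05), although its average stayed under 1 CPM. WNT10A passed the filter on low counts only through its GD90 libraries. This test was therefore open to it only because it is high at GD90, and its p-value is not separate support for a rise. WNT9B had 0.518, 0.797 and 1.24 CPM at GD45, 1.02, 1.32 and 2.51 CPM at GD60 and 2.03, 2.64 and 4.07 CPM at GD90, its GD60 and GD90 ranges overlapping, and rose in the second period (0.88 ± 0.27, adjusted p = 0.0145). In the first period its difference was of like size but not called (0.86 ± 0.29, adjusted p = 0.0537).

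WNT9A, encoded beside WNT3A on chromosome 2, had 11.4, 14.1 and 15.9 CPM at GD45, 13.4, 18.98 and 22.9 CPM at GD60 and 15.8, 19.2 and 21.3 CPM at GD90. Its first-period rise (0.42 ± 0.12, adjusted p = 0.0192) was lost in 6 of 26 alternatives, and to GD90 it was not called, with overlapping ranges (0.03 ± 0.11, adjusted p = 0.861). WNT5A, the main ligand of the polarity branch in many tissues, averaged 10.9, 10.7 and 15.1 CPM at the 3 days and rose from GD60 to GD90 (0.49 ± 0.17, adjusted p = 0.0313), a call lost in 8 of 26 alternatives. WNT5A and WNT5B therefore differed in direction in that period. WNT10B and WNT16 were called in no comparison, at 4.16, 4.93 and 4.87 CPM and 1.75, 1.92 and 2.01 CPM. WNT10B shares 18.5% of its exon length with WNT1 on the other strand, and the shared bases are 77.5% of the exon length of WNT1. The counts of both genes are therefore uncertain.

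The Frizzled receptors summed to 128 ± 9.04 FPKM at GD45, 90.5 ± 8.12 at GD60 and 63.2 ± 5.06 at GD90, and the lowest library of each day lay above the highest of the next. The 3 receptors with the highest levels, FZD1, FZD2 and FZD8, were all lower at GD90 than at GD45. FZD1 (ENSSSCG00000036436, chr9:71349988-71352104) had 39.9, 54.5 and 64.9 CPM at GD45, 30.7, 49.8 and 57.1 CPM at GD60 and 16.4, 23.5 and 27.8 CPM at GD90. Its GD45 and GD60 ranges overlapped and all GD90 libraries lay below both. It was not called in the first period (-0.19 ± 0.15, adjusted p = 0.432) and fell in the second (-1.12 ± 0.15, adjusted p = 1.79e-05). FZD8 had 44.4, 53.4 and 57.5 CPM at GD45, 15.8, 28.7 and 31.6 CPM at GD60 and 15.3, 16.7 and 17.7 CPM at GD90, with no overlap between GD45 and the later days. FZD8 fell in the first period (-0.98 ± 0.13, adjusted p = 9.14e-05) and in the second (-0.66 ± 0.14, adjusted p = 0.000915). FZD2 had 41.97, 52.9 and 93.97 CPM at GD45, 25.97, 34.1 and 45.5 CPM at GD60 and 18.1, 23.8 and 30.04 CPM at GD90, the highest value at GD45 being male replicate 17, and the ranges of neighbouring days overlapped. FZD2 fell to GD60 (-0.75 ± 0.17, adjusted p = 0.00562) and to GD90 (-0.51 ± 0.17, adjusted p = 0.0228), where the second call was lost in 4 of 26 alternatives.

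Among the other Frizzled receptors, FZD6 rose and FZD9 rose early. FZD6, known from hair and planar polarity, had 2.18, 7.44 and 11.97 CPM at GD45, 5.51, 8.12 and 11.3 CPM at GD60 and 11.9, 15.2 and 18.97 CPM at GD90. All GD90 libraries lay above all GD60 libraries, although not above all of GD45, and it rose in the second period (0.81 ± 0.27, adjusted p = 0.0231), a call lost in 3 of 26 alternatives. FZD9, a receptor of the hippocampus, had 5.71, 6.18 and 9.17 CPM at GD45, 7.16, 9.05 and 11.3 CPM at GD60 and 7.75, 8.71 and 11.3 CPM at GD90, with overlapping ranges. Its first-period rise (0.41 ± 0.13, adjusted p = 0.0415) was the least stable call of the group, lost in 16 of 26 alternatives. FZD7 and FZD10 were called in neither period but were lower at GD90 than at GD45 (-0.91 ± 0.21, adjusted p = 0.00134 for FZD7, and -0.52 ± 0.16, adjusted p = 0.0131 for FZD10). FZD3 and FZD5 were not called in any of the 3 comparisons. FZD4, the Norrin receptor of vessels, had at most 22 counts in any library, and 88.7% of its listed exon length is shared with ME3 on the same strand, so its level cannot be read from these counts.

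LRP5 carried most of the co-receptor FPKM, with 87.6%, 86.5% and 78.6% at the successive days. LRP5 (ENSSSCG00000012885, chr2:4533593-4653945) had 61.8, 68.3 and 80.2 CPM at GD45, 64.7, 70.1 and 80.5 CPM at GD60 and 39.3, 48.2 and 55.2 CPM at GD90. The 2 earlier days overlapped and all GD90 libraries lay below them. It was not called from GD45 to GD60 (0.02 ± 0.09, adjusted p = 0.914) and fell from GD60 to GD90 (-0.57 ± 0.09, adjusted p = 0.000132). LRP6 varied far more within a day, with 4.12, 8.602 and 17.1 CPM at GD45, 4.005, 7.07 and 23.5 CPM at GD60 and 4.25, 11.9 and 21.3 CPM at GD90, and was called in neither period (0.06 ± 0.37, adjusted p = 0.93, then 0.21 ± 0.37, adjusted p = 0.674).

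The antagonists that bind WNT had the largest change in composition. Their summed level was 128 ± 9.94 FPKM at GD45, 96.9 ± 14.8 at GD60 and 54.5 ± 4.91 at GD90. SFRP1 (ENSSSCG00000025822, chr17:10436426-10489748), a Frizzled-related protein known from neural progenitors, had 315, 411 and 439.5 CPM at GD45, 224, 281 and 380.3 CPM at GD60 and 72.7, 77.7 and 89.3 CPM at GD90. The GD45 and GD60 ranges overlapped, and the highest GD90 library lay far below the lowest GD60 library. SFRP1 fell in the first period (-0.46 ± 0.11, adjusted p = 0.00985) and by much more in the second (-1.84 ± 0.12, adjusted p = 5.38e-09), and across the whole interval it was 4.95-fold lower (log2 fold change -2.31 ± 0.12, adjusted p = 1.08e-10). It supplied 78.2% ± 2.91 of the antagonists' FPKM at GD45, 74.6% ± 3.20 at GD60 and 37.4% ± 5.60 at GD90.

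SFRP4 moved in the opposite direction. It had 1.32, 1.98 and 3.11 CPM at GD45, 3.64, 4.49 and 5.798 CPM at GD60 and 10.2, 10.8 and 17.3 CPM at GD90, and the 3 days did not overlap. SFRP4 rose in the first period (1.16 ± 0.19, adjusted p = 0.000459) and in the second (1.41 ± 0.18, adjusted p = 9.27e-06), which took its share of the antagonists' FPKM from 0.812% ± 0.261 to 11.4% ± 1.81. SFRP2 had 27.1, 34 and 37.9 CPM at GD45, 19.6, 24.3 and 28.2 CPM at GD60 and 26.8, 34.3 and 45.4 CPM at GD90, with GD60 lowest and overlapping ranges. It fell to GD60 (-0.45 ± 0.14, adjusted p = 0.0338), a call lost in 9 of 26 alternatives, and rose to GD90 (0.57 ± 0.14, adjusted p = 0.00353). Its share of the antagonists' FPKM went from 12% at GD45 to 30.0% at GD90. FRZB had 20.99, 23.3 and 25.2 CPM at GD45, 12.4, 16.7 and 19.9 CPM at GD60 and 19.2, 22.03 and 26.6 CPM at GD90. All GD60 libraries lay below all GD45 libraries, and the GD90 range reached back to that of GD45. FRZB fell to GD60 (-0.52 ± 0.10, adjusted p = 0.00108) and rose to GD90 (0.46 ± 0.10, adjusted p = 0.001), and GD90 was not called against GD45 (-0.06 ± 0.10, adjusted p = 0.582).

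SFRP5 had 3.72, 4.09 and 7.804 CPM at GD45, 6.46, 7.32 and 9.67 CPM at GD60 and 4.17, 5.05 and 7.55 CPM at GD90, with GD60 highest. Its first-period rise (0.68 ± 0.20, adjusted p = 0.0296) was lost in 10 of 26 alternatives, and the lower level at GD90 was not called (-0.45 ± 0.20, adjusted p = 0.0851). WIF1, which binds WNT through a domain of its own, was at 3.91, 4.26 and 4.18 CPM and was called in none of the 3 comparisons.

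Of the Dickkopf antagonists, DKK3 supplied 97.3%, 97.8% and 97.2% of the FPKM. DKK3 (ENSSSCG00000013401, chr2:47385191-47446538), a divergent family member with disputed action on the co-receptor, had 175, 231 and 251 CPM at GD45, 235, 257 and 272 CPM at GD60 and 365, 396 and 421 CPM at GD90. The earlier days overlapped and all GD90 libraries lay above them. It was not called from GD45 to GD60 (0.22 ± 0.09, adjusted p = 0.1) and rose from GD60 to GD90 (0.62 ± 0.09, adjusted p = 2.68e-05). DKK1, the classical blocker of LRP5 and LRP6, had 0.765, 1.02 and 1.11 CPM at GD45, 0.753, 1.24 and 1.85 CPM at GD60 and 1.77, 3.16 and 3.96 CPM at GD90. Its GD60 and GD90 ranges overlapped slightly, and GD90 lay above all GD45 libraries. DKK1 was not called in the first period (0.37 ± 0.21, adjusted p = 0.262) and rose in the second (1.27 ± 0.20, adjusted p = 8.73e-05), with 27 to 66 counts per library at GD90. DKK2 was called in none of the 3 comparisons, at means of 1.64, 1.51 and 1.83 CPM.

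RSPO3 was the R-spondin with the highest level, at 7.78, 9.36 and 6.15 FPKM. It had 15.3, 19.5 and 25.8 CPM at GD45, 20.4, 24.9 and 27.1 CPM at GD60 and 14.8, 16.3 and 17.3 CPM at GD90. All GD90 libraries lay below all GD60 libraries, and it fell in that period (-0.61 ± 0.13, adjusted p = 0.00167) after no call in the first (0.26 ± 0.13, adjusted p = 0.193). RSPO2 had 3.81, 4.75 and 5.89 CPM at GD45, 4.14, 5.15 and 6.11 CPM at GD60 and 8.14, 10.3 and 11.3 CPM at GD90. The 2 earlier days overlapped, all GD90 libraries lay above them, and RSPO2 rose (0.93 ± 0.15, adjusted p = 7.97e-05). The share of RSPO2 in the R-spondin FPKM went from 14.6% ± 2.43 at GD60 to 32.7% ± 2.89 at GD90, and that of RSPO3 from 80.6% ± 2.89 to 63.3% ± 4.9. RSPO1 averaged 1.62, 0.7897 and 0.5205 CPM and was called lower only across the whole interval (-1.61 ± 0.49, adjusted p = 0.0107).

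The receptors of the R-spondins summed to 4.39 ± 1.25 FPKM at GD60 and 8.05 ± 0.966 at GD90. LGR4 (ENSSSCG00000013335, chr2:32871871-32979148), the broadly expressed receptor, had 9.95, 21.9 and 24.9 CPM at GD45, 12.4, 22.7 and 26.4 CPM at GD60 and 24.4, 30.4 and 34.95 CPM at GD90. The ranges overlapped at all days and LGR4 rose from GD60 to GD90 (0.55 ± 0.18, adjusted p = 0.0181), a call lost without TMM factors (adjusted p = 0.0618) and without male GD60 replicate 16. LGR5, a marker of stem cells in several tissues, had 0.622, 1.33 and 1.84 CPM at GD45, 0.768, 1.32 and 2.08 CPM at GD60 and 1.32, 2.09 and 2.95 CPM at GD90. Its ranges overlapped and it was called in neither period (0.11 ± 0.32, adjusted p = 0.859, then 0.57 ± 0.31, adjusted p = 0.152). LGR6 (ENSSSCG00000044583, chr10:24359874-24454431), known from hair follicle stem cells, had 0.0627, 0.6998 and 1 CPM at GD45, 0.192, 0.558 and 1.76 CPM at GD60 and 8.13, 8.87 and 10.01 CPM at GD90. The libraries of GD45 and GD60 held 1 to 28 counts of LGR6, and those of GD90 held 132 to 168. It was not called in the first period (0.39 ± 0.41, adjusted p = 0.572) and was 12.1-fold higher in the second (3.60 ± 0.35, adjusted p = 5.28e-07), the largest change among the genes above 1 CPM on average. Its share of the class FPKM went from 3.67% ± 2.30 to 23.7% ± 3.72.

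ZNRF3, the ligase with the higher level, had 12.8, 21.1 and 22.1 CPM at GD45, 17.7, 22.1 and 27.6 CPM at GD60 and 27.6, 33.9 and 39.5 CPM at GD90. All GD90 libraries lay above all GD60 libraries, by a margin of less than 1 CPM, and ZNRF3 rose (0.61 ± 0.14, adjusted p = 0.00185). RNF43 was at 1.19, 1.18 and 1.56 CPM and was not called in any of the 3 comparisons.

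**Figure D3:**
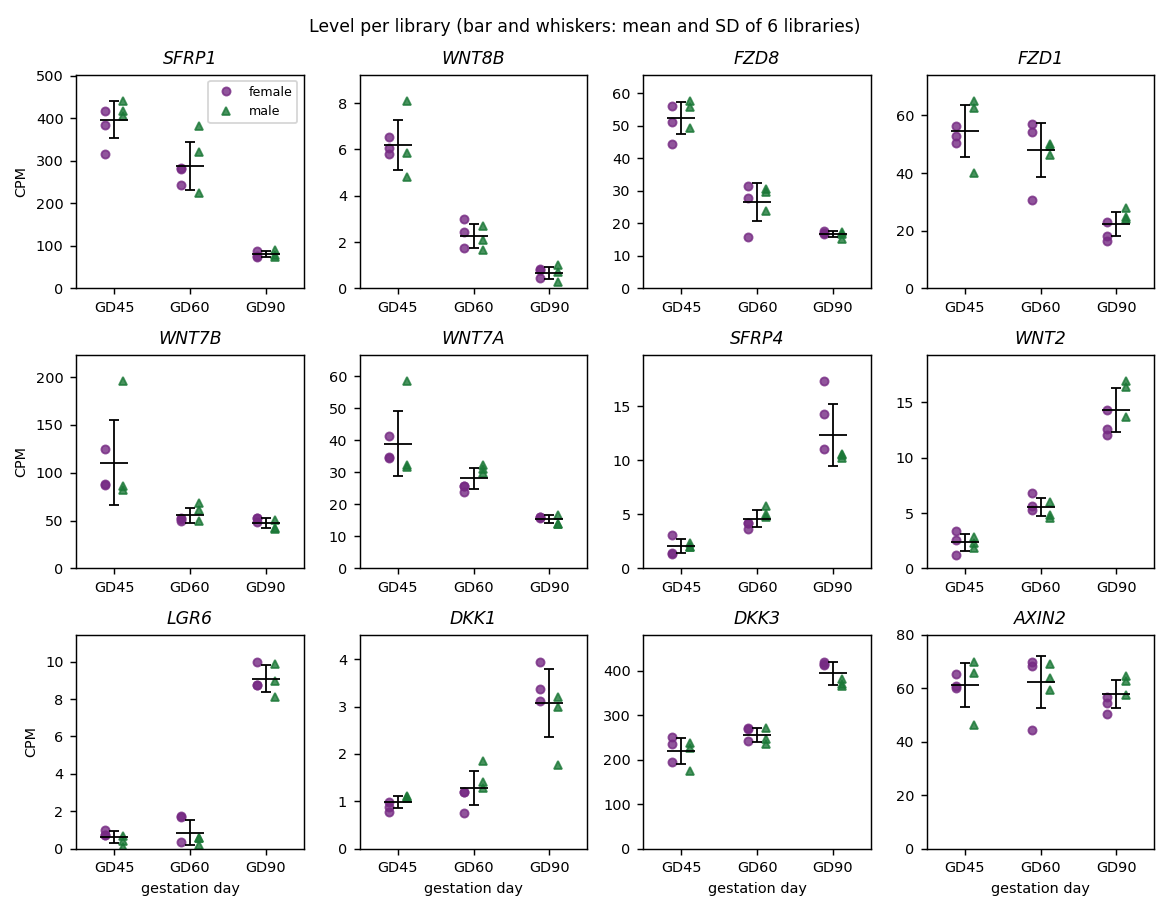
CPM (y axis, from 0) of 12 genes in each library by gestation day (x axis), with females as circles, males as triangles, and the mean and SD of 6 libraries as bar and whiskers. SFRP1, WNT8B, FZD8 and FZD1 fall, SFRP4, WNT2, LGR6, DKK1 and DKK3 rise, and AXIN2 overlaps at all 3 days.

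Among the nuclear factors, TCF7L2 (ENSSSCG00000010638, chr14:123343694-123546417), which is known from the thalamus and from oligodendrocytes, had 63.7, 106 and 151 CPM at GD45, 31.1, 74.8 and 88.6 CPM at GD60 and 30.98, 41.3 and 48.5 CPM at GD90. Ranges of neighbouring days overlapped, and all GD90 libraries lay below all GD45 libraries. TCF7L2 fell to GD60 (-0.68 ± 0.21, adjusted p = 0.0351), a call lost in 10 of 26 alternatives, and to GD90 (-0.74 ± 0.21, adjusted p = 0.0103). LEF1, a factor and itself a target of the pathway, had 29.6, 35.1 and 41.8 CPM at GD45, 15.04, 21.3 and 26.1 CPM at GD60 and 20.9, 22.6 and 24.6 CPM at GD90. All GD45 libraries lay above those of GD60 and GD90, which overlapped. LEF1 fell in the first period (-0.73 ± 0.12, adjusted p = 0.000391) and was not called in the second (0.09 ± 0.12, adjusted p = 0.586). TCF7 averaged 7.401, 5.63 and 5.37 CPM and was called only across the whole interval (-0.47 ± 0.14, adjusted p = 0.00705).

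AXIN2 (ENSSSCG00000017265, chr12:12311293-12343200), the feedback inhibitor whose transcription is used in many tissues as a readout of beta-catenin activity, had 46.2, 63.1 and 70.01 CPM at GD45, 44.5, 66.1 and 70.02 CPM at GD60 and 50.5, 57.1 and 64.7 CPM at GD90. The ranges of all 3 days overlapped. AXIN2 was called in neither period (0.03 ± 0.12, adjusted p = 0.912, then -0.12 ± 0.12, adjusted p = 0.45) nor across the interval (-0.09 ± 0.12, adjusted p = 0.526). A miss of the threshold does not show that its level was equal.

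The sequence before the start of each gene was read for the TCF/LEF core motif CTTTGAT and its reverse complement ATCAAAG, on both strands of the 250 bases before the start in Sscrofa11.1. The motif was found in 2 of the 53 genes, AXIN2 and WNT11, and in 3.02% of the 30431 genes of the table that could be read. All 53 genes overlapped the RefSeq gene of the same symbol in that build. The start used here is the outermost exon edge listed in the gene table, which may not be where transcription begins, so these bases need not be promoters. The 250 bases before AXIN2 are shown because its transcription is the usual readout of the pathway, with chr12:12343201-12343450 on the minus strand written 5′ to 3′, and capitals marking the match, which begins 23 bases before the start. Those before SFRP1 (chr17:10489749-10489998, minus strand), which fell most in level, and SFRP4 (chr9:108414312-108414561, minus strand), which rose in both periods, hold no match. For WNT11 the match with 10 bases on each side (chr9:10435134-10435160, minus strand), 50 bases before the start, is given.
AXIN2: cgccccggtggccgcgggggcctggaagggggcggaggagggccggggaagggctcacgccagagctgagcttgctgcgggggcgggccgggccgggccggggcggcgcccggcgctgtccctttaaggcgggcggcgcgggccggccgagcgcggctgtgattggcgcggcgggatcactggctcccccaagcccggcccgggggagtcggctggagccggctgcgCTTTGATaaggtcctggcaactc
SFRP1: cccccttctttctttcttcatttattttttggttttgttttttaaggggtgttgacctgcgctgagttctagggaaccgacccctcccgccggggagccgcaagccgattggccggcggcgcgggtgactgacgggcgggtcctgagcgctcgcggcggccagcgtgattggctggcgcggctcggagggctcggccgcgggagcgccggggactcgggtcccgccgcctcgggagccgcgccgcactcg
SFRP4: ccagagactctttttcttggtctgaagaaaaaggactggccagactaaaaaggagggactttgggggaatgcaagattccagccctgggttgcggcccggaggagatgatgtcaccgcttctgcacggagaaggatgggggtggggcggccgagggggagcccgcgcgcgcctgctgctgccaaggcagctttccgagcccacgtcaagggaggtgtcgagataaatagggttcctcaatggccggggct
WNT11 site: acgtgggcggATCAAAGcagctgcccg
The median GC content of these 250 bases was 67.6% in the 53 genes and 52.8% in all genes, and the median number of CG pairs was 20 and 7. A match is a description of letters and not a binding site, and AXIN2 and WNT11 differed in their course, AXIN2 being called in no comparison and WNT11 lower from GD60 to GD90.

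Separated by sex, 6 of the 49 genes were called from GD45 to GD60 in females (12.2%, with 7.22% of all genes) and 7 in males (14.3%, with 5.61%). These were WNT2, SFRP4, WNT8B, WNT7B, FZD8 and LEF1 in both sexes, with the same direction in each, and FRZB in males. From GD60 to GD90, 20 were called in females (40.8%, with 27.1% of all genes) and 28 in males (57.1%, with 34.5%), and 17 in both, all with the same direction. TCF7L2, FZD7 and WNT3 were called in females, and WNT5A, LGR4, FZD3, ZNRF3, WNT6, WNT11, FZD6, LRP6, WNT5B, WNT9B and FZD2 in males. A call in 1 sex and not in the other is not a difference between the sexes. The interaction of sex and period called 0 of 49 genes in each period by edgeR's quasi-likelihood test, and 0% of all genes. At an unadjusted p under 0.05 it held 1 gene in the first period (2.04%, with 2.04% of all genes) and 9 in the second (18.4%, with 19.8%). By DESeq2 it called 0 and 1 (2.13% of those tested, with 1.68% of all genes). Males and females differed in 0 of 49 genes at GD45, GD60 and GD90, where 0.0919%, 0.098% and 0.098% of all genes were called. By DESeq2 they also differed in 0 genes, with 0.068%, 0.115% and 0.311% of all genes. At an unadjusted p under 0.05 by edgeR there were 1, 3 and 3 genes (2.04%, 6.12% and 6.12%). Of all genes, 2.59%, 4.8% and 13.6% were under it.

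LRP6 and FZD3 had the smallest unadjusted p for the interaction in the second period. LRP6 was at 23.5, 15.9 and 4.597 CPM in the GD60 females and at 8.89, 4.01 and 5.25 in the GD60 males, and at 4.25, 9.94 and 6.22 CPM in the GD90 females and 13.9, 17.3 and 21.3 in the GD90 males. The sexes overlapped at GD60, and at GD90 all males lay above all females. The change in males exceeded that in females by a log2 difference of 2.64 ± 0.74 (adjusted p = 0.18). FZD3 was at 9.59, 16.2 and 13.2 CPM in the GD90 females and at 21.9, 27.7 and 25.3 in the GD90 males, with a log2 difference of 1.41 ± 0.47 (adjusted p = 0.201). Without male GD45 replicate 17, LRP6, FZD3, LGR4 and FZD2 were called for the interaction (8.16% of the 49, with 13.3% of all genes), and LRP6 had an adjusted p of 0.023. Female GD90 replicate 2 had the lowest GD90 level of both LRP6 and FZD3. Without it 0 of the 49 were called for the interaction, and 3 had an unadjusted p under 0.05 (6.12%, with 10.9% of all genes). Between the sexes at GD90, 0 of the 49 then had an unadjusted p under 0.05, with 4.06% of all genes. Male GD60 replicate 16, the library lowest for 15 of the 49 genes at its day, gave the lowest count when left out, with 18 calls in males in the second period in place of 28 (36.7%, with 23% of all genes). With another male library of GD60 or GD90 left out there were 21 to 27 calls, with 24% to 33.8% of all genes.

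Other genes of the pathway were read from a list of 59 genes for WNT secretion, membrane proteins, planar polarity, the cytoplasmic beta-catenin machinery and nuclear partners, of which 57 were in the table and 56 were tested. From GD45 to GD60, 10 were called (17.9%, with 16.7% of all genes), 4 higher and 6 lower. The largest falls were in SP5, a nuclear target that represses other targets (-1.45 ± 0.37, adjusted p = 0.0114), the proteoglycan GPC4 (-0.60 ± 0.09, adjusted p = 0.000296) and TPBG, a membrane inhibitor (-0.56 ± 0.12, adjusted p = 0.00402). The largest rises were in APC2, a neural relative of the scaffold APC (0.80 ± 0.25, adjusted p = 0.0369), the polarity protein PRICKLE2 (0.73 ± 0.11, adjusted p = 0.000254) and the receptor TNFRSF19 (0.41 ± 0.09, adjusted p = 0.00563). WLS, the carrier that takes WNT to the cell surface, also fell (-0.32 ± 0.09, adjusted p = 0.0261).

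From GD60 to GD90, 29 of the 56 were called (51.8%, with 42.4% of all genes), 10 higher and 19 lower. Of the 10 nuclear partners, singled out after their values were seen, 8 fell and none rose, where 20.9% of all genes were called lower. These were the co-repressors TLE1, TLE2, TLE3 and TLE4, the co-activators BCL9 and BCL9L, and the factors SP5 and SP8. The largest falls were in SP8 (-1.04 ± 0.35, adjusted p = 0.0236), SP5 (-1.04 ± 0.39, adjusted p = 0.0435) and TLE2 (-0.90 ± 0.14, adjusted p = 7.34e-05). In the cytoplasm DVL1, DVL2, DVL3, AXIN1 and CSNK1E fell, with DVL2 at -0.84 ± 0.08, adjusted p = 3.86e-07, while APC and BTRC rose. Among the polarity proteins PRICKLE1 (1.28 ± 0.09, adjusted p = 2.58e-08) and PRICKLE2 (1.15 ± 0.11, adjusted p = 4.6e-07) rose, whereas the cadherins CELSR1 and CELSR3 fell. TSPAN12, the partner of FZD4 in Norrin signalling, rose (0.72 ± 0.19, adjusted p = 0.00623).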

How the data were processed

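RNA of 18 whole fetal pig brains (3 female and 3 male libraries at each of GD45, GD60 and GD90) was sequenced by the authors as paired-end reads of mRNA selected on oligo(dT) beads. Per the study's methods and the labels, the authors used Trimmomatic for trimming, HISAT2 for alignment to Sscrofa11.1 and featureCounts for counting on Ensembl genes. The deposited values used here are raw read counts per gene. Options for strand and for reads with several matches are not given in the sources used here, so genes that overlap others are uncertain. The table holds 22 count columns for 18 libraries, since 4 libraries have 2 runs each, whose counts were summed (chi-square per degree of freedom was 1.61 to 1.67 between such runs and at least 6.71 between the closest replicates). Exon and transcript tables were not used.

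Counts were filtered with filterByExpr (16325 of 31908 genes kept), scaled by TMM and fitted with edgeR 4.0.16 in R 4.3.3 as 1 quasi-likelihood model of 6 groups of sex and day over all libraries. Contrasts were tested by the F test with Benjamini-Hochberg adjustment over all genes kept and a threshold of 0.05. CPM and FPKM were computed here from the counts, the TMM-scaled library sizes and the exon lengths in the table. Library totals had a median of 16413097 counts, and a library with no count allows up to 3 counts, for counting error only. P-values measure the spread between fetuses, of which some may be littermates. They treat the 6 libraries of a day as independent although these came from 3 litter sizes, so they may be too small. On simulated counts with 200 of 16325 genes changed by a log2 fold change of 1 for GD90 against GD60, the fit recovered 98.5% of the genes with 11 false calls. The simulation gave every gene the same dispersion, held no litter effect and no outlying library, and changed only genes above 1 CPM on average. It therefore checks that the fit runs as intended and does not give its power or false calls in the real data.

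The genes and the lists of pathway and marker genes were chosen with earlier results of these data known. Of the genes called with at least 1 CPM on average, the 8 largest changes in each direction per period are given in full, as are the gene of highest FPKM in each role, AXIN2, LEF1 and LGR5, and other genes of the group may be named with their levels. Of the other pathway genes, the 3 largest changes in each direction per period are given in full, and WLS, DVL2 and the genes listed without values were named after their values were seen. Alternatives were library size without TMM factors, DESeq2 1.42.0, edgeR's likelihood ratio test, a filter of over 1 CPM in 3 or more libraries, the table without a filter, only the libraries of the days compared, libraries of the same day and litter size summed, both GD45 libraries of litter size 8 left out, each library left out in turn, and for the sexes a block by litter. The sequence before each gene start was read from the RefSeq genome Sscrofa11.1 with pysam 0.24.0, and figures were drawn with matplotlib 3.10.9. The comparisons by sex of the neighbouring fetus are not analysed here.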

Additional observations from a re-analysis of the deposited data

Results flagged for a closer look

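Within each day, the highest and lowest library of each tested gene was set against the other 5 by the gap to its nearest neighbour relative to the range of the day. Of 147 such groups of 6 libraries, 6 passed the critical ratio of 0.625, which is 4.08%, and chance alone passes about 1 in 20 groups. Of the 6, 4 were in male GD45 replicate 17. That library had the highest FZD2 of GD45 (94.0 CPM, the next being 54.8) and the highest WNT7A (58.4 CPM, the next being 41.2). It also had the lowest LGR4 (9.95 CPM, the next being 20.5) and the lowest ZNRF3 (12.8 CPM, the next being 19.5). SFRP5 was highest at GD45 in male replicate 11 (7.80 CPM, the next being 4.83), and FZD7 was highest at GD90 in male replicate 1 (27.5 CPM, the next being 15.7). Without male GD45 replicate 17, 17 of the genes were called from GD45 to GD60 in place of 15 (34.7% in place of 30.6%), and 20.3% of all genes in place of 16.7%.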

How the results depend on the processing

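Under 26 alternatives, 9 of 15 calls for GD60 against GD45 held in every alternative, 23 of 29 for GD90 against GD60 and 32 of 34 for GD90 against GD45. With libraries of the same day and litter size summed, the calls in these comparisons numbered 12, 27 and 32 (24.5%, 55.1% and 65.3%). Of all genes, 11.6%, 37.4% and 53.3% were then called. That fit lost FZD9, SFRP2, SFRP5 and TCF7L2 in the first period, WNT2B and WNT5A in the second, and RSPO3 and WNT5A across the interval. With 1 library left out, the calls numbered 10 to 17, 24 to 30 and 32 to 36. Without male GD60 replicate 16 (10 and 24 calls), 13.9% and 37.6% of all genes were called in the 2 periods. Without male GD45 replicate 17 (17 and 30 calls), these shares were 20.3% and 49.5%. For GD90 against GD45, 53.3% of all genes were called without female GD45 replicate 12 (32 calls). The share was 56% without male GD45 replicate 11 (36 calls). In females they ranged from 3 to 10 in the first period (10 without male GD45 replicate 17, 3 without female GD45 replicate 18 or female GD60 replicates 3 or 5) and from 12 to 21 in the second (12 without female GD90 replicate 2, 13 without female GD60 replicate 5). Of all genes, 14% were called in the first period without male GD45 replicate 17 and 3.3% without female GD45 replicate 18. In the second period 19.1% were called without female GD90 replicate 2 and 19.7% without female GD60 replicate 5. In males they ranged from 3 to 9 (4 without male GD45 replicate 14, 3 without male GD60 replicates 6 or 16) and from 18 to 29. Without male GD60 replicate 16 (3 and 18 calls), 3.4% and 23% of all genes were called. Without male GD45 replicate 17 (9 and 29 calls), 9.32% and 44.3% were. The interaction of sex and period for GD90 against GD60 gave 0 to 4 calls with a library left out (4 without male GD45 replicate 17, or 8.16% with 13.3% of all genes, and 1 without female GD60 replicate 15, or 2.04% with 0.518%), and, in alternatives chosen after seeing the data, 1 by DESeq2 (LRP6, 2.13% with 1.68%) and 3 without both GD45 libraries of litter size 8 (LRP6, FZD3 and LGR4, 6.12% with 12.7%). Other pathway genes gave 7 to 13 and 24 to 33 calls with a library left out. In the first period they gave 7 without female GD45 replicate 12 and 13 without female GD60 replicate 15 (13% and 17.9% of all genes). In the second they gave 24 without male GD60 replicate 4 and 33 without male GD45 replicate 17 (40.8% and 49.5%). They gave 6 in the first period both with only the days compared and with littermates summed (12% and 11.6% of all genes). Fewer libraries enter these fits. With a library left out, the log2 fold change of AXIN2 in the first period, 0.025, ranged from -0.066 (without male GD45 replicate 17) to 0.12 and turned negative in 4 of 18 cases, and without both GD45 libraries of litter size 8 it was -0.038. That of LGR5, 0.11, ranged from -0.15 (without male GD60 replicate 4) to 0.34, was negative in 3 of 18, and was -0.0021 without the litter of 8. That of LEF1 in the second period, 0.086, ranged from -0.0075 (without male GD60 replicate 16) to 0.18. None of these values was called. LGR5 was called from GD60 to GD90 without male GD60 replicate 4 (0.82, adjusted p = 0.0482). The causes were not tested. The replicate block by litter called 0 genes between the sexes at each day, as did the fit without it, and the deviations of libraries sharing a litter size correlated by -0.0932 to 0.424, so the litter sizes are a hint of pairing only. Genes under 1 CPM, such as WNT3A and WNT10A, rest on few counts at the days where they are low.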
